A study of Gallus gallus with 3 samples.

Results

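The collagens and matrix proteins of chicken breast muscle are described here gene by gene, with the proteinases, inhibitors and cross-linking enzymes that turn the matrix over. Members were chosen by symbol in the NCBI chicken RefSeq gene table: collagen chains, laminin chains, matrix metalloproteinases (MMPs), their tissue inhibitors (TIMPs), the lysyl oxidase family, and SPARC, DCN, LUM, BGN, FMOD, OGN, FN1, POSTN and THY1. Of 86 such genes, 56 had a transcript in the deposited tables, out of 10663 genes that could be named in all. The other 30 had no matched transcript and were not analysed here, among them COL1A1, LAMA2, LAMB1, LAMC1 and LOX. Every sum over a class below is therefore a sum over the matched genes only.

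The study sequenced breast muscle mRNA of Gallus gallus, from Arbor Acres meat chickens (broilers bred for fast growth), male and 42 days old, kept in air with 50 ± 3 ppm of ammonia. There were 3 libraries in 1 group, called library 1, 2 and 3 after their titles. No other exposure was analysed here, so nothing below measures what ammonia did. The labels do not state that each library is a separate bird. SDs and p-values hence cover the spread between libraries, which may be technical.

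The matrix of skeletal muscle is laid down mostly by fibroblasts between the fibres. Fibrillar collagens, chiefly types I and III with type V inside the fibril, form the rope-like cables of the connective tissue sheaths. Each fibre and capillary is also wrapped in a basement membrane, a sheet of type IV collagen and laminin, which type VI collagen ties to the surrounding fibrils. Metalloproteinases cut these proteins, TIMPs block the proteinases, and lysyl oxidases cross-link the fibrils.

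Levels are the deposited values, read here as FPKM, that is fragments corrected for transcript length and for library size, so genes can be compared within a library. Library totals were 569361, 586193 and 573648, and read depth is unknown. Libraries 2 and 3 were closest across named genes (Pearson correlation 0.973, against 0.951 for library 1 with either; genes are not independent replicates). As a check of the tissue label, 5 of 8 muscle fibre markers were matched, led by MYL1, a fast myosin light chain, at 12654, 17786 and 17487 FPKM in libraries 1 to 3. The lowest of the 5 was PVALB, parvalbumin, at 2.37, 1.46 and 1.28 FPKM. The median named gene was higher in library 1 than in library 2 by 0.13 and than in library 3 by 0.16 on the log2(FPKM + 1) scale, a shift that every difference below includes unless scaled. In bulk tissue, fewer cells of a type and less RNA per cell cannot be told apart.

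Together the 56 genes held 0.226%, 0.395% and 0.360% of the library totals in libraries 1 to 3. SPARC alone made up 23.2% of the mean sum, and the 5 highest genes, SPARC, COL3A1, TIMP2, COL1A2 and DCN, made up 62.8%. These were the members with a mean of at least 100 FPKM. Another 4, COL6A2, COL6A1, COL4A1 and LUM, reached 50 FPKM. A mean of at least 5 FPKM was reached by 27 genes, 8 lay between 1 and 5 FPKM, and 21 lay under 1 FPKM. A filter of at least 1 FPKM in at least 2 libraries was passed by 33 of the 56 (58.9%), near the 61.8% of all named genes. The median mean level was 21.0 FPKM among the 33 and 9.06 FPKM among the 6595 named genes that passed.

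**Figure D1:**
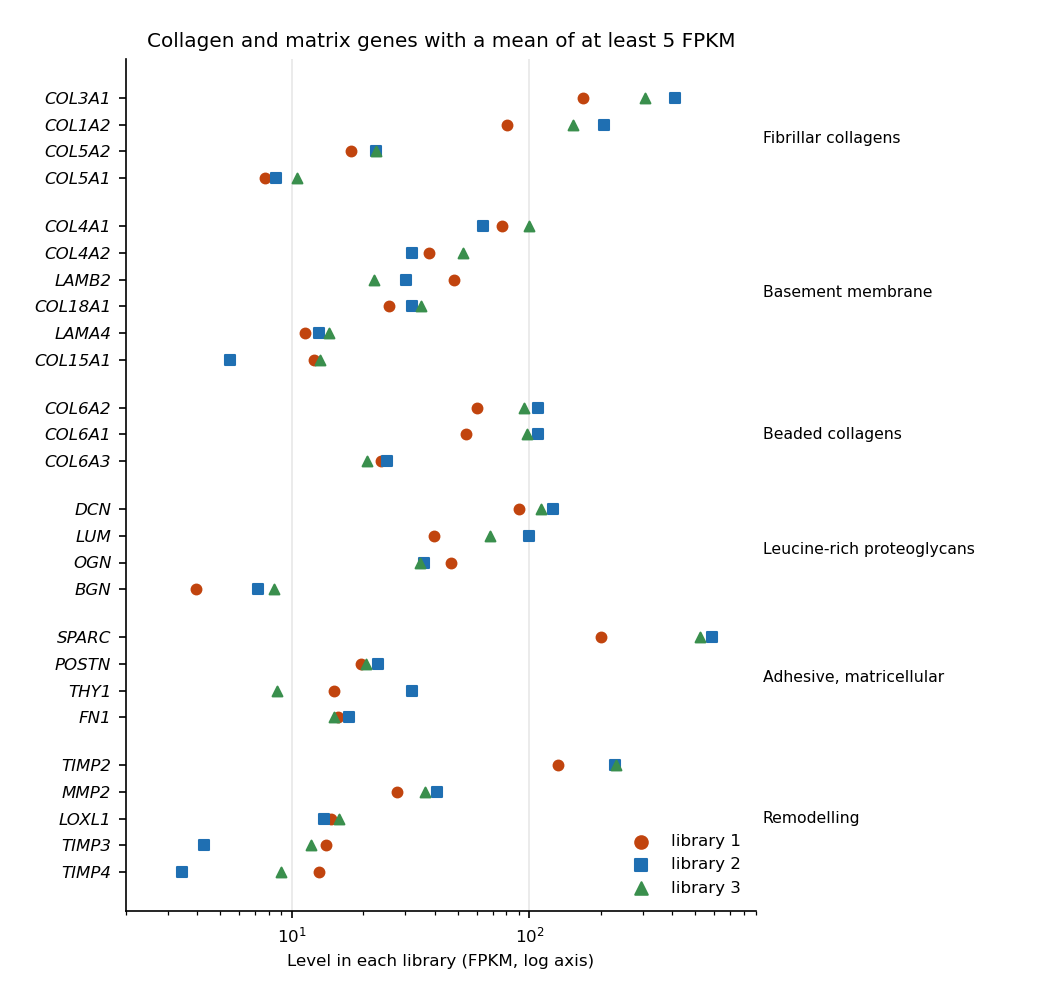
Level of each of the 26 classed genes with a mean of at least 5 FPKM, on a log axis, grouped by class, with 1 symbol for each library. Library 1 is the lowest of the 3 for SPARC, COL3A1, COL1A2, COL6A1, COL6A2 and LUM, while library 2 is the lowest for COL4A1, COL4A2, COL15A1, TIMP3 and TIMP4.

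Fibrillar collagens were represented by type III, type I and type V chains. COL3A1, the only chain of type III collagen, stood at 168, 409 and 307 FPKM in libraries 1 to 3 (294 ± 121 FPKM, mean ± SD, n = 3) and ranked 180 among the 10663 named genes. COL1A2, the α2 chain of type I collagen, was listed at 80.8, 205 and 153 FPKM (146 ± 62.5 FPKM). Both genes were lowest in library 1 and highest in library 2. The type V chains, which regulate fibril diameter, were far lower: COL5A2 was listed at 17.7, 22.7 and 22.7 FPKM and COL5A1 at 7.72, 8.54 and 10.5 FPKM. They were also lowest in library 1, but by less. COL2A1 and COL11A1, chains of cartilage collagens, had means of 0.154 and 0.0939 FPKM and did not pass the filter.

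The ratio of COL3A1 to COL1A2 was nearly the same in every library, at 2.08, 1.99 and 2.01. Its log2 ratio of 1.02 ± 0.03 (SD, n = 3) varied far less than either level, whose SDs on the log2(FPKM + 1) scale were 0.65 and 0.68. The ratio of COL5A1 to COL5A2 was 0.435, 0.377 and 0.463 in libraries 1 to 3, with a log2 ratio of -1.24 ± 0.15. COL5A2 and COL3A1 are neighbours in the gene table, yet COL3A1 was 2.43 times as high in its highest library as in its lowest, and COL5A2 1.28 times.

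The type IV chains of the basement membrane ordered the libraries differently from the fibrillar chains. COL4A1, the main chain of type IV collagen, stood at 76.9, 63.5 and 99.8 FPKM in libraries 1 to 3, and its partner chain COL4A2 at 37.9, 31.9 and 52.6 FPKM. Both were lowest in library 2, where COL3A1 and COL1A2 were highest, and both were highest in library 3. The ratio of COL4A1 to COL4A2 was 2.03, 1.99 and 1.90, a log2 ratio of 0.98 ± 0.05. COL4A1 and COL4A2 are neighbours in the gene table, and in mammals they are transcribed in opposite directions from a shared promoter. COL4A6, of the less widespread type IV chains, was listed at 4.59, 1.66 and 2.50 FPKM, again lowest in library 2.

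LAMB2, the laminin β2 chain found at the neuromuscular junction and around fibres, went another way, at 47.9, 30.4 and 22.1 FPKM. It was the only basement membrane gene that passed the filter with its lowest value in library 3. LAMA4, a laminin α chain of vessel walls, varied little, at 11.4, 13.0 and 14.4 FPKM (12.9 ± 1.50 FPKM). One of its 2 predicted transcripts held 82.8%, 62.4% and 61.7% of the gene's level in libraries 1 to 3, a split that depends on how reads shared by isoforms were divided. LAMA1, LAMB3, LAMB4 and LAMC3 each had a mean under 1 FPKM, the highest being LAMB4 at 0.126 FPKM.

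Type XVIII and type XV collagens sit in the basement membrane zone and carry heparan or chondroitin sulphate chains. COL18A1, whose C-terminal piece is endostatin, was listed at 25.7, 32.0 and 35.0 FPKM. COL15A1 was listed at 12.4, 5.47 and 13.1 FPKM, lowest in library 2 and 2.39 times as high in library 3. Its levels in libraries 1 and 3 were close, but the listed make-up was not. Of its 3 predicted transcripts, 1 held 19.8%, 16.8% and 53.5% of the gene's level in libraries 1 to 3. As for LAMA4, such a split depends on how reads shared by isoforms were divided. Endothelial markers, 6 of 8 matched and all 6 above 1 FPKM on average, were also lowest in library 2 for 5 of 6 genes (34.8% of all named genes were), with summed levels of 88.6, 51.6 and 58.4 FPKM. PLVAP, of capillary walls, led them at 57.0, 30.1 and 30.8 FPKM. Their part in the basement membrane values was not tested.

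Type VI collagen, the beaded filament that links basement membrane to fibrils, was the third collagen system with high values. COL6A1 stood at 53.8, 109.2 and 97.9 FPKM in libraries 1 to 3 and COL6A2 at 60.0, 108.5 and 95.1 FPKM. These neighbouring genes kept a ratio of 0.898, 1.01 and 1.03, a log2 ratio of -0.03 ± 0.11. COL6A3, the long chain of the same protein, was listed at 23.7, 25.1 and 20.7 FPKM and did not share the low value of library 1. Its ratio to COL6A1, a pair chosen after the values were seen, was 0.441, 0.230 and 0.211. The network collagens COL8A1 and COL8A2, known from vessel walls and the eye, and COL26A1 had means of 0.108, 0.518 and 0.252 FPKM.

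Fibril-associated collagens, which coat fibrils, were scarce. COL20A1 stood at 1.47, 2.33 and 3.57 FPKM in libraries 1 to 3, COL21A1 at 1.47, 3.23 and 1.34 FPKM, and COL14A1 at 0.533, 1.95 and 1.07 FPKM. The other 6 matched genes, COL9A1, COL9A2, COL9A3, COL12A1, COL19A1 and COL22A1, did not pass the filter, and the highest of them, COL19A1, had a mean of 0.745 FPKM. COL22A1, which marks muscle-tendon junctions in mammals and zebrafish, had a mean of 0.502 FPKM. No membrane collagen of the 4 in the gene table was matched.

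Small leucine-rich proteoglycans bind fibrils and set their spacing. DCN, decorin, stood at 90.8, 126 and 112 FPKM in libraries 1 to 3 and LUM, lumican, at 39.7, 99.3 and 68.1 FPKM. LUM and DCN are neighbours in the gene table, but LUM varied more: the ratio of LUM to DCN was 0.438, 0.787 and 0.609. BGN, biglycan, was listed at 3.94, 7.17 and 8.39 FPKM, also lowest in library 1. OGN, osteoglycin, was the exception in the class, listed at 46.7, 36.0 and 34.7 FPKM and highest in library 1. FMOD, fibromodulin, lay between 0.596 and 2.64 FPKM and did not pass the filter.

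SPARC, a secreted collagen-binding protein that helps fibrils to assemble, had the highest mean of the 56 genes. It stood at 200.5, 589.6 and 524.6 FPKM in libraries 1 to 3 (438 ± 208 FPKM), rank 143 among named genes. The level in library 2 was 2.94 times that in library 1, and library 3 lay close to library 2. FN1, fibronectin, was steady at 15.6, 17.4 and 15.1 FPKM, and so was POSTN, periostin, at 19.5, 23.1 and 20.5 FPKM. The ratio of SPARC to FN1 was accordingly 12.9 in library 1, 33.9 in library 2 and 34.8 in library 3. THY1, a surface glycoprotein of fibroblasts and other cells, was listed at 15.1, 32.0 and 8.61 FPKM, highest in library 2 and lowest in library 3. FN1 had the same order of libraries, but with far smaller differences.

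Remodelling genes were dominated by an inhibitor. TIMP2 stood at 132, 229.7 and 231 FPKM in libraries 1 to 3 (198 ± 57.0 FPKM), lowest in library 1. MMP2, the gelatinase that TIMP2 both inhibits and helps to activate, was listed at 27.6, 40.7 and 36.4 FPKM. The ratio of TIMP2 to MMP2 was 4.76, 5.65 and 6.35, a log2 ratio of 2.47 ± 0.21. Over the matched genes of each family, TIMPs summed to 159, 237 and 252 FPKM and MMPs to 33.9, 49.7 and 42.8 FPKM. This comparison was chosen after the values were seen. The MMP sum lacks MMP3, MMP13, MMP15, MMP17 and MMP24, which had no matched transcript, while every TIMP in the gene table was matched.

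Between libraries 1 and 2, TIMP3 and TIMP4 ran against TIMP2. TIMP3, the inhibitor that stays bound to the matrix, was listed at 13.9, 4.25 and 12.1 FPKM. TIMP4 was listed at 12.9, 3.43 and 8.95 FPKM. Both were lowest in library 2 and highest in library 1, by 3.28 times for TIMP3 and 3.77 times for TIMP4, and the ratio of TIMP3 to TIMP2 was 0.106, 0.0185 and 0.0523. LOXL1, the only lysyl oxidase matched, was among the steadiest members at 14.7, 13.7 and 15.8 FPKM. MMP28 lay between 3.49 and 5.24 FPKM, MMP23A between 1.33 and 2.27 FPKM, and MMP16, a membrane-bound proteinase, between 0.874 and 1.32 FPKM. MMP9 and MMP27 had means of 0.274 and 0.109 FPKM. MMP1, MMP7 and MMP10 were listed at 0 in every library, which in such tables can also be a failed estimate.

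One match was by name only. COL4A3BP encodes a ceramide transfer protein and not a collagen. It was listed at 10.1, 4.15 and 5.78 FPKM and entered no class. MMP23A was in none of the class lists either and entered no class sum.

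The classes were then compared within each library. Fibrillar collagens summed to 274, 645 and 493 FPKM in libraries 1 to 3, basement membrane genes to 217, 178 and 239.8 FPKM, and remodelling genes to 206, 298 and 309 FPKM. Fibrillar collagens thus exceeded basement membrane genes 1.26, 3.62 and 2.06 times, with a log2 ratio of 1.08 ± 0.76 (SD, n = 3). They exceeded remodelling genes 1.33, 2.16 and 1.59 times, with a log2 ratio of 0.73 ± 0.35. Basement membrane genes stood at 1.06, 0.597 and 0.775 times the remodelling genes, so that the order of these classes in library 1 was the opposite of that in libraries 2 and 3, and the log2 ratio of -0.34 ± 0.41 was smaller than its SD.

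**Figure D2:**
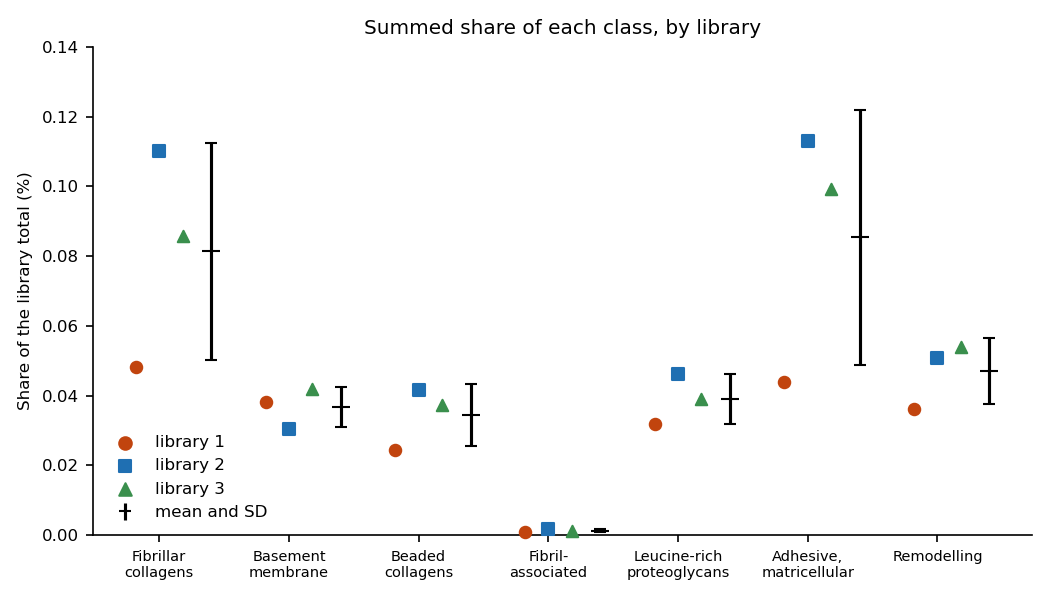
Share of each library's total held by the matched genes of each class, in percent, with 1 symbol for each library and the mean with its SD (n = 3) in black. Fibrillar collagens span 0.0482% to 0.110% and adhesive and matricellular genes 0.0440% to 0.113%, whereas summed basement membrane genes span 0.0304% to 0.0418%. Single basement membrane genes differed in opposite directions, which a sum hides. For genes that passed the filter, the median SD of log2(FPKM + 1) was 0.36 for basement membrane genes and 0.43 for fibrillar collagens.

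Adhesive and matricellular genes held 0.0854 ± 0.0365% of the library total (SD, n = 3), most of it SPARC, fibrillar collagens 0.0814 ± 0.0312% and remodelling genes 0.0470 ± 0.0095%. Leucine-rich proteoglycans held 0.0391 ± 0.0072%, basement membrane genes 0.0368 ± 0.0058%, beaded and network collagens 0.0344 ± 0.0090%, and fibril-associated collagens 0.0013 ± 0.0004%. Between neighbours in this order, the gap exceeded the SDs of both classes only from fibrillar collagens to remodelling genes and from beaded to fibril-associated collagens. The order also rests on which chains were matched: only 12 of 21 basement membrane genes were, against 6 of 9 fibrillar collagens.

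No ratio passed a 0.05 threshold. With 3 libraries, the smallest p that the exact permutation test by sign flips (two-sided) can give is 0.25. That value was reached by 9 of 11 ratios, counting the 3 class ratios and the 8 of 12 pairs with both genes matched (0.306 after Benjamini-Hochberg adjustment over the 11). The exceptions were basement membrane to remodelling (p = 0.5 in the exact permutation test) and COL6A1 to COL6A2 (p = 1).

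**Figure D3:**
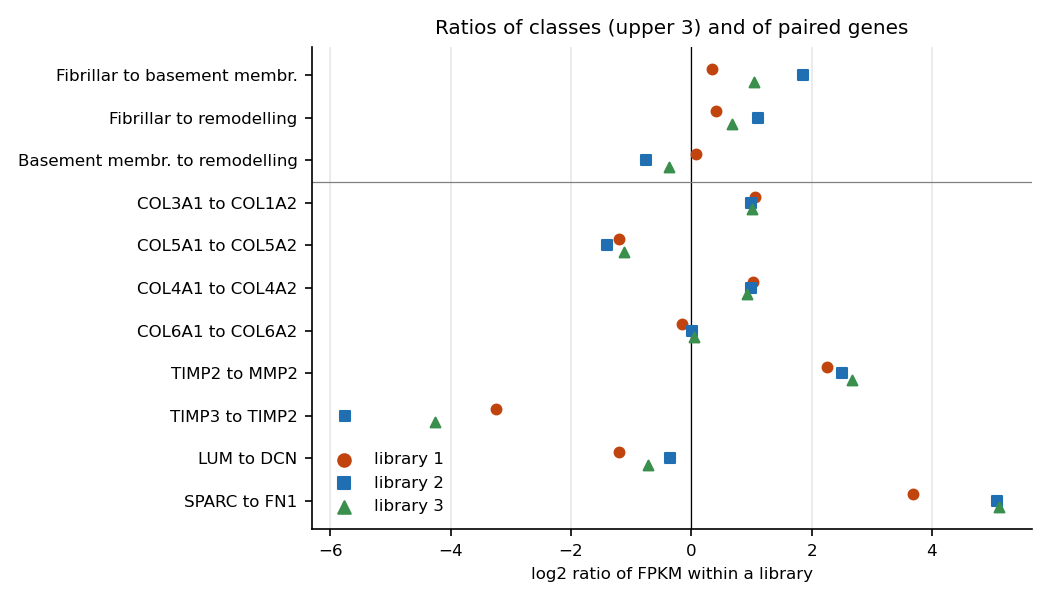
Ratios of summed FPKM between classes (upper 3) and of FPKM between paired genes, on a log2 axis, with 1 symbol for each library. The chain pairs COL3A1 to COL1A2, COL4A1 to COL4A2 and COL6A1 to COL6A2 lie close together, while TIMP3 to TIMP2 spans -3.24 to -5.76 and SPARC to FN1 spans 3.68 to 5.12.

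The libraries were next set against each other in pairs. Library 1 against library 2 gave the widest gap: 11 of the 33 genes that passed the filter differed more than 2-fold on the log2(FPKM + 1) scale (33.3%, against 8.16% of all 6595 named genes). Of these, 6 were lower in library 1, by log2 differences of -1.55 for SPARC, -1.33 for COL1A2, -1.30 for LUM, -1.28 for COL3A1, -1.04 for THY1 and -1.01 for COL6A1 (2.96% of all genes were lower). The 5 higher in library 1 were TIMP4 at 1.65, TIMP3 at 1.51, COL4A3BP at 1.11, COL4A6 at 1.07 and COL15A1 at 1.05 (5.20% of all genes were higher). After median-of-ratios scaling, which removes the shift of the median gene, the split was 7 lower, with COL14A1 added, and 2 higher, TIMP3 and TIMP4, against 7.64% of all genes in either direction. The median difference was -0.34 for the 33 genes, against 0.13 for all named genes.

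Against library 3, only SPARC was more than 2-fold lower in library 1 (log2 difference -1.38, with 2.93% of all genes lower) and only LAMB2 more than 2-fold higher (1.08, with 5.96% of all genes higher). These were 6.06% of the 33, no more than the 8.89% of all genes. This count depends on the scaling: after median-of-ratios scaling 6 genes were lower, COL1A2, COL3A1, COL6A1, BGN, COL20A1 and SPARC, and none was higher, against 8.40% of all genes in either direction. The median difference as deposited was -0.31 for the 33 genes and 0.16 for all named genes. Between libraries 2 and 3, THY1 was higher in library 2 by 1.78, and TIMP3, TIMP4 and COL15A1 were lower by log2 differences of -1.32, -1.17 and -1.12 (12.1% of the 33, against 3.93% of all genes). With 1 library a side these differences carry no test, and the comparisons share libraries.

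**Figure D4:**
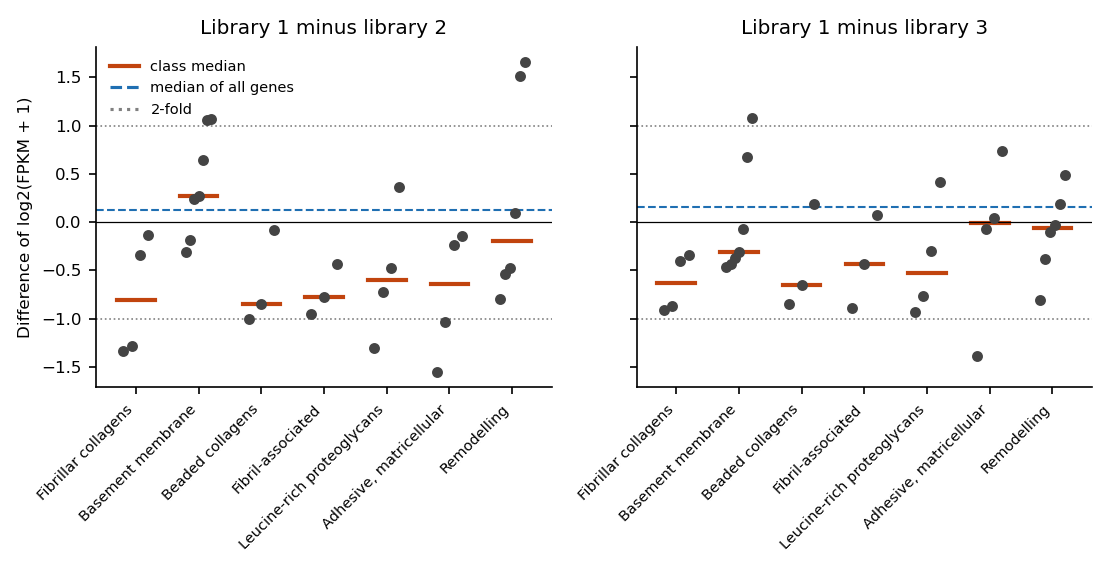
Difference of log2(FPKM + 1) between library 1 and library 2 (left) and between library 1 and library 3 (right) for each gene that passed the filter, by class, with the class median in orange, the median of all named genes dashed and 2-fold dotted. All 4 fibrillar collagens lie below 0 on both sides, while 5 of 7 basement membrane genes lie above 0 on the left and 2 of 7 on the right. Of all 6595 named genes that passed, 4018 were above 0 for library 1 minus library 2 and 4248 for library 1 minus library 3.

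Library 1 held the lowest value for 18 of the 33 genes (54.5%), where it did so for 25.8% of all named genes. It held the highest value for 6 (18.2%), against 51.1% of all genes. The 18 comprised 4 of 4 fibrillar collagens, 2 of 3 beaded collagens, 2 of 3 fibril-associated collagens, 3 of 4 leucine-rich proteoglycans, 2 of 4 adhesive and matricellular genes, 3 of 6 remodelling genes and 2 of 7 basement membrane genes. After median-of-ratios scaling the count was 21, against 37.1% of all genes, and the fibrillar and basement membrane counts were as before. Library 2 held the lowest value for 8 genes (24.2%, against 34.8% of all genes), of which 4 were basement membrane genes and 3, TIMP3, TIMP4 and LOXL1, remodelling genes. Library 3 held it for 7 (21.2%, against 39.4%). The highest value lay in library 2 for 16 genes (48.5%, against 26.3% of all genes) and in library 3 for 11 (33.3%, against 22.6%).

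Whether any of these genes varied more than genes of similar level was tested across all 6595 named genes with limma. None of the 33 was called after Benjamini-Hochberg adjustment, where 0% of all genes were, and the smallest adjusted p among them was 0.735. An unadjusted p under 0.05 was reached by 4 of the 33 (12.1%, against 5.64% of all genes): THY1, TIMP4, SPARC and TIMP3. Their adjusted p in limma was 0.735 for THY1 and 0.806 for each of the others. The median SD on the log2(FPKM + 1) scale was 0.44 for the 33 genes and 0.26 for all genes that passed. These medians are not matched for level: the 33 genes were higher, and this scale understates differences of low genes. At the other end, LOXL1, FN1 and POSTN had SDs of 0.10, 0.10 and 0.12.

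Fibroblast markers summed to their lowest level in library 2, and their genes differed in which library was low. Of 8 fibroblast markers 7 were matched and 5 passed the filter, with summed levels of 58.6, 45.5 and 62.2 FPKM in libraries 1 to 3, and 1 of the 5, FAP, was lowest in library 1 (25.8% of all named genes were). FAP, a surface protease of activated fibroblasts, was listed at 2.64, 4.26 and 4.27 FPKM. MFAP5, which led the list, was listed at 22.1, 13.6 and 31.4 FPKM, and the order of the sums depends on it. DPT, dermatopontin, was listed at 18.5, 16.8 and 14.5 FPKM. CD34 was listed at 9.47, 7.42 and 8.23 FPKM and PDGFRA at 5.53, 3.36 and 3.65 FPKM. DPT, CD34 and PDGFRA were thus highest in library 1, whereas MFAP5 and FAP were highest in library 3. TCF21 and S100A4 had means of 0.0725 and 0.0999 FPKM. Smooth muscle and pericyte markers, 5 of 7 matched, summed to 97.4, 73.0 and 86.1 FPKM with RGS5, a pericyte marker and most of the sum, at 71.9, 35.2 and 40.2 FPKM. The contractile genes of that list went the other way, and 3 of the 5 were lowest in library 1: ACTA2 was listed at 11.7, 16.8 and 24.3 FPKM, TAGLN at 9.41, 15.4 and 16.0 FPKM and MYH11 at 2.51, 3.88 and 3.97 FPKM. Fibre markers summed to 48880, 62245 and 62379 FPKM, and 3 of the 5 were lowest in library 1, while TNNC2, a fast troponin C listed at 14970, 14728 and 13542 FPKM, and PVALB were highest there. How far any of these lists bears on the matrix values was not tested.

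Sums of the other marker lists also differed between libraries. Macrophage markers, 6 of 7 matched, summed to 392, 339 and 165 FPKM in libraries 1 to 3, with 6 of 6 lowest in library 3 (39.4% of all named genes were), and were led by CD74 at 325, 269.7 and 136 FPKM. Adipocyte markers, 5 of 5 matched, summed to 184, 128 and 76.2 FPKM, led by FABP4, a lipid chaperone, at 113, 71.3 and 15.5 FPKM. ADIPOQ, the fat cell hormone adiponectin and the second highest of that list, was instead highest in library 3, at 38.4, 36.1 and 46.9 FPKM. Satellite cell markers, 4 of 5 matched, summed to 187, 124 and 104 FPKM, led by MYOD1 at 153, 109 and 94.4 FPKM. Blood markers, 5 of 5 matched, 1 of them through a synonym, summed to 83.0, 427 and 308 FPKM. Most of it was CA2, a carbonic anhydrase, at 45.7, 355 and 189 FPKM. The synonym led from the listed ALAS2 to the gene named ALAS1, so ALAS2 was not matched by its own symbol. The β globin HBBA was highest in library 3, at 24.3, 54.1 and 98.7 FPKM, the α globin HBA1 passed 1 FPKM only in library 3, at 3.10 FPKM, and HBAD was near 0 in every library. Their part in the matrix values was not tested.

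The summed level of genes that build collagen was nearly equal in the 3 libraries. Of 25 genes of collagen synthesis and processing, 16 were matched and 14 passed the filter, and the matched genes summed to 231, 235 and 237 FPKM. Single genes of the list moved in opposite directions, and 7 of the 14 were lower in library 1 than in library 2 (2577 of all 6595 named genes were). SERPINH1, the collagen chaperone of the endoplasmic reticulum, was listed at 40.6, 62.6 and 71.1 FPKM, lowest in library 1 like the fibrillar chains. P4HB, at 39.7, 27.4 and 30.7 FPKM, P4HA1, at 29.4, 17.9 and 20.4 FPKM, and MIA3, at 25.0, 16.0 and 16.3 FPKM, were instead highest there. Of the 14, 6 were lowest in library 1, 6 in library 2 and 2 in library 3, against 25.8%, 34.8% and 39.4% of all named genes. PLOD1, a lysyl hydroxylase, was listed at 44.4, 49.6 and 35.0 FPKM. FKBP14, a proline isomerase of collagen folding, had the largest spread among the higher genes of this list (mean of 5 FPKM or more), at 3.18, 9.55 and 11.0 FPKM, and was the only one of the 14 more than 2-fold lower in library 1 than in each other library (2.96% of all named genes were lower than in library 2 and 2.93% lower than in library 3). None was more than 2-fold higher there. Of all named genes, 5.20% were so against library 2 and 5.96% against library 3.

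Further matrix proteins and the receptors for matrix were looked at in the same way. Of 25 further matrix genes 12 were matched and 9 passed, and none of the 9 was lowest in library 1 (25.8% of all named genes were). MFAP5, an elastic fibre protein also counted among the fibroblast markers, had the highest mean, followed by PRELP, a leucine-rich protein, at 14.5, 13.6 and 10.1 FPKM. THBS1, thrombospondin, had the largest spread among the genes of this list with a mean of 5 FPKM or more, at 10.9, 5.25 and 2.30 FPKM. SPP1, osteopontin, was lower and varied more, at 2.22, 3.95 and 0.130 FPKM. Of 24 receptor genes 19 were matched and 15 passed, of which 4 were lowest in library 1, near the share of all named genes. Of the 15, 3 were more than 2-fold higher in library 1 than in library 2 (5.20% of all named genes were) and 2 higher than in library 3 (5.96% of all). None was more than 2-fold lower in library 1 than in library 2 (2.96% of all) or library 3 (2.93% of all). SGCB, of the sarcoglycan complex, was listed at 92.5, 148 and 184.7 FPKM, ITGB1, the integrin β1 chain, at 72.6, 93.7 and 106 FPKM, and SDC4, a syndecan, at 14.2, 3.60 and 3.91 FPKM.

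TGF-β signalling drives matrix genes in fibroblasts, and 10 of 16 listed genes were matched, 1 through a synonym. TGFB3, a ligand, was listed at 128, 226 and 142 FPKM, highest in library 2 as COL3A1 and COL1A2 were. The list holds genes of differing roles in the pathway, and how far it bears on the matrix values was not tested. Its median log2 difference, library 1 minus library 2, was 0.40, against -0.81 for fibrillar collagens and 0.13 for all named genes. CYR61, the synonym of the listed CCN1, was at 14.2, 21.5 and 6.77 FPKM. CCN2, a matricellular target of the pathway, was highest in library 1, at 24.3, 6.70 and 6.98 FPKM. Of the 10, CCN2 and the co-receptor TGFBR3 were more than 2-fold higher in library 1 than in each other library, and none was more than 2-fold lower, beside the same shares of all genes as for the receptors. No gene of the 4 lists was called by limma after adjustment, and 1, 2, 1 and 3 genes of the synthesis, matrix, receptor and signalling lists had an unadjusted p under 0.05, where 5.64% of all genes did. Of the genes that passed, that is 1 of 14, 2 of 9, 1 of 15 and 3 of 10, and the synthesis and receptor counts lie near that share.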

How the data were processed

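Breast muscle mRNA of 3 libraries in 1 group was analysed. Total RNA was isolated with TRIzol and mRNA taken with oligo(dT) beads, per the labels' protocols. CASAVA 1.7, Bowtie2 and HTSeq are named, without a role, per the submitters' processing notes. Which build, annotation and program gave the values is not given in the sources used here. Each deposited table held 36977 RefSeq transcripts with 1 value each, in no named unit. These deposited values were treated as FPKM, an inference from fractional values and similar totals. If they were TPM with some rows removed, ratios inside a library would be unchanged. Depth is unknown, so no counting interval is given.

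Accessions were matched without version to the NCBI gene table (GRCg7b, used for names and neighbours only): 13188 transcripts in 10663 genes, summed per gene. The 56 members had 68 transcripts, and 36 had a curated one. Members, classes, pairs and lists were chosen with earlier results of these data known. Levels were compared as log2(FPKM + 1), which understates differences of low genes. Gene variances over 3 libraries were set against their trend with level in limma 3.58.1 (R 4.3.3, robust prior, upper F tail, residual df 2, adjusted p under 0.05). The test was also run on simulated data in which genes of similar level shared a common SD. In the real data such genes differ in SD, so that run does not show how readily the test calls genes here. Ratios used an exact sign-flip permutation test. Genes with a mean of 5 FPKM or more and paired genes were given by library. For each other list, the 2 highest genes and the one of largest spread at 5 FPKM or more were named, and for marker lists the highest. Further genes of the marker lists were named after their values were seen. These were FAP, PDGFRA, CD34, DPT, S100A4, TCF21, ACTA2, TAGLN, MYH11, TNNC2, PVALB, ADIPOQ, HBBA, HBA1 and HBAD. The same holds for SPP1, TGFBR3, P4HB, P4HA1 and MIA3 of the other lists. Alternatives were another pseudocount (0.1), no filter, scalings, curated or single transcripts, and libraries left out. One member is not reported here by name. Sequences were not used here.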

Additional observations from a re-analysis of the deposited data

How the results depend on the processing

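Both ratios with fibrillar collagens kept the direction of their mean over libraries under every alternative run. When 1 library was left out, mean log2 ratios were 0.69 to 1.45 to basement membrane genes and 0.54 to 0.89 to remodelling genes. Without the highest gene of each class they were 0.35 and 1.19. The 0.35 had p = 0.5 in the exact permutation test, against 0.25 in the main run, so its direction was not the same in all 3 libraries. The ratio of basement membrane to remodelling genes reversed to 0.16 with the mean log2 level over genes and to 0.83 without the highest gene of each class (COL4A1 and TIMP2), and lay between -0.56 and -0.15 when 1 library was left out. COL6A1 to COL6A2 lay between -0.074 (without library 3) and 0.026 (without library 1), so its direction reversed. With curated transcripts only, 7 of 22 matrix genes were past 2-fold between libraries 1 and 2 (against 7.95% of all genes). In the main run, with more genes tested, the count was 11 of 33 (against 8.16%). Between libraries 2 and 3 it was 2 of 22 with curated transcripts (against 3.74%) and 4 of 33 in the main run (against 3.93%). Between libraries 1 and 3 the count was 4 of 33 with pseudocount 0.1 (against 13.4% of all genes) and 6 of 33 with median-of-ratios scaling (8.40%). It was 5 of 33 with upper quartile scaling (8.46%) and 4 of 36 for single transcripts (10.1% of all transcripts). With no filter, 13 and 16 genes were lowest in libraries 2 and 3, since 53 genes entered (against 33.2% and 38.9% of all genes). With curated transcripts only, 3 of 22 were lowest in library 2 (against 33.1%). The limma test called 0 to 30 genes when 1 library was left out (26 without library 2, 30 without library 3). None of them was among the genes chosen by symbol, and the other lists were not checked for this. Under its other settings the test called 0 genes. Depth is unknown, so low values cannot be weighed. The scalings applied to counts of lowest values and to mean levels were chosen after seeing the data. No paired analysis was possible because there is 1 group.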
